A study of Mus musculus with 62 samples.

Results

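The 6 genes described here encode the sarcomeric myosin heavy chains of limb and trunk muscle: Myh2 (type IIa), Myh1 (type IIx), Myh4 (type IIb), Myh7 (slow, type I), Myh8 (perinatal) and Myh3 (embryonic). They were chosen by name, and all 6 were found among the 47643 genes of the table and among the 13578 genes tested. RNA-seq was done on the diaphragm muscle of 62 female mice, and each library came from 1 mouse. Cachectic mice carried a melanoma xenograft that causes wasting, non-cachectic mice carried a melanoma xenograft that does not, and control mice received a mock injection of PBS. There were 5 mice in each group at 2, 4, 6 and 8 weeks after injection, except for 7 cachectic mice at 8 weeks.

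All mice were 2 months old according to the labels. The labels name the strain C57BL/6J and a stranded mRNA kit. The methods of the study name nude mice for these melanoma xenografts, and C57BL/6J only for a separate experiment with LLC tumors. They also name another TruSeq kit. The labels thus conflict with the methods on the strain, and the use of strand is uncertain. Each tumor group carried 1 patient-derived tumor line, so that the presence of cachexia and the identity of the line cannot be told apart.

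Myosin heavy chain is the motor protein of the thick filament, and the isoform that a myofiber holds sets how fast it contracts and how much ATP it uses. Slow fibers hold the Myh7 product, and fast fibers hold the products of Myh2, Myh1 or Myh4, in order of rising speed. Myh3 and Myh8 are active in developing muscle, decline after birth and return in regenerating fibers. The diaphragm is the main muscle of breathing, and in rodents it consists mostly of fast fibers.

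The 5 fast and developmental genes lie side by side on the plus strand of chromosome 11 (GRCm38), in the order Myh3 (chr11:67078300-67102291), Myh2 (chr11:67171027-67197517), Myh1 (chr11:67200052-67224575), Myh4 (chr11:67238029-67260446) and Myh8 (chr11:67277124-67308634). Myh7 lies on the minus strand of chromosome 14 (chr14:54970684-54994626), next to the cardiac gene Myh6. The promoters of the chromosome 11 genes are shown because these neighbors had very different levels in the same mice. Each sequence spans 300 bases around the start of the gene in RefSeq (GRCm38.p6, plus strand) and ends 50 bases after it, at chr11:67170777-67171076 for Myh2, chr11:67199852-67200151 for Myh1, chr11:67237562-67237861 for Myh4, chr11:67276874-67277173 for Myh8 and chr11:67078050-67078349 for Myh3. Capitals mark the longest run of bases found in all of the Myh2, Myh1, Myh4 and Myh8 promoters.

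Myh2: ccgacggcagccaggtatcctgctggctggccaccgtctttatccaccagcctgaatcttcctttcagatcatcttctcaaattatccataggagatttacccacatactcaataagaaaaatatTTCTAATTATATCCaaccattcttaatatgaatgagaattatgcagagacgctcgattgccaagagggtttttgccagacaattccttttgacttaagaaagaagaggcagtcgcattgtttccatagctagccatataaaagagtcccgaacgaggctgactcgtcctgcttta

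Myh1: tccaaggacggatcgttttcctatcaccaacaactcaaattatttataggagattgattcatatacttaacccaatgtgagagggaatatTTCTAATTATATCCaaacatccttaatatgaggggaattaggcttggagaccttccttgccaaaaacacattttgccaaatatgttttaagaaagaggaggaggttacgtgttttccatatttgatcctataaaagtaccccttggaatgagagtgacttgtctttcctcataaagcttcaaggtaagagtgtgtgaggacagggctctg

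Myh4: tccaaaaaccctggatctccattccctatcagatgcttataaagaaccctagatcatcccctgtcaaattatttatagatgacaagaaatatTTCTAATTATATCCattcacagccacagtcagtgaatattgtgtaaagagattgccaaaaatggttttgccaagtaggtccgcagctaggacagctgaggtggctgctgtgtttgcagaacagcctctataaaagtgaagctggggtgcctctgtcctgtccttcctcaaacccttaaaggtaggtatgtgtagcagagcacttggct

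Myh8: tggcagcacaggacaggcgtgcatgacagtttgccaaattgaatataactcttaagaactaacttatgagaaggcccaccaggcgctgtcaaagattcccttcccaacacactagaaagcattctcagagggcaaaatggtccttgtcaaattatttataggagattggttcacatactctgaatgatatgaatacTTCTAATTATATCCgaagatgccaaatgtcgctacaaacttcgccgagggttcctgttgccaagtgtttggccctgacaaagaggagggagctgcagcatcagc

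Myh3: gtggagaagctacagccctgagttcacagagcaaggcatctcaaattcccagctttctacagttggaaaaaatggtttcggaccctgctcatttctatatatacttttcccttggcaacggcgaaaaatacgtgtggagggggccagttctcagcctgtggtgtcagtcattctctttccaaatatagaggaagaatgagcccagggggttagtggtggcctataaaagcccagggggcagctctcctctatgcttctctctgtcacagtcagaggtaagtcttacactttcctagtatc

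The run is 14 bases long, and on either strand it occurred in 4 of the 32851 mouse promoters of this length, which is 0.0122% and comprises these 4 genes alone. It begins 125 bases before the start in Myh2, 160 in Myh1, 158 in Myh4 and 54 in Myh8. The Myh3 and Myh7 promoters did not hold it in these windows. The motif CANNTG (E-box), the binding motif of MyoD and its relatives, was found on either strand in the windows of Myh3, Myh4, Myh7 and Myh8, and in 72.3% of all promoters. The shared run is a feature of the sequence, and no binding was measured here.

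Levels are given as transcripts per 1000000 (TPM), a unit corrected for gene length so that genes can be compared with each other. Myh1 had the highest median, 5083 TPM over the 62 mice, and Myh2 followed with 3316 TPM. Myh7 had a median of 376 TPM, Myh4 of 166 TPM, Myh8 of 26.9 TPM and Myh3 of 3.50 TPM. Myh1 and Myh2 were the 2 highest of the 6 genes in each of the 62 mice, and Myh3 was the lowest in each. Myh1 was above Myh2 in 58 mice, and Myh7 was above Myh4 in 48 mice. The 6 genes together made up between 0.132% and 1.81% of all transcripts of a library.

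Some of these transcripts resemble each other. Of the overlapping words of 100 bases in the longest transcript of each gene, 9.73% of those of Myh1 and 9.17% of those of Myh2 also occurred in another myosin heavy chain, most often in each other. The share was 11.2% for Myh7, all of it in Myh6, and 6.61% for Myh8, 3.85% for Myh4 and 1.15% for Myh3. How reads that match several genes were counted is not given in the sources used here, so these levels are uncertain to that extent.

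The tissue matched its label. The 6 markers of the skeletal muscle fiber were above 0 in each mouse, and skeletal actin (Acta1) had between 7993 and 47694 TPM. Of the 7 heart genes, 6 stayed at or under 5.77 TPM, among them Nppa, Tnni3, Myl7 and Mybpc3, and Myh6 had between 16.6 and 189 TPM. Of the 6 macrophage markers, 2 were higher in cachectic than in control mice at 6 weeks (median log2 fold change 0.75) and 3 at 8 weeks (median 0.74), with the same counts against non-cachectic mice, and 0 were called by limma at 4 weeks in either contrast. Without the libraries with few genes described next, 4 and 3 were higher against controls at 6 and 8 weeks. Their mean log2(TPM + 1) was between 3.53 and 4.91 in cachectic mice at 8 weeks and between 3.17 and 3.78 in controls, and their part in the results was not tested. Liver genes were high in single libraries, with albumin (Alb) at up to 13369 TPM, and 4 libraries (control replicates 2, 4 and 5 at 2 weeks and cachectic replicate 5 at 6 weeks) had a mean log2(TPM + 1) above 8 over the 10 liver genes.

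4 libraries stood apart. At 2 weeks these were replicates 3 and 4 of the cachectic and replicate 5 of the non-cachectic mice, and at 8 weeks replicate 3 of the cachectic mice. They listed between 15069 and 16389 genes above 0, whereas the other 58 libraries listed between 17909 and 19057. Mitochondrially encoded genes took between 54.4% and 61.5% of their TPM, and between 32.5% and 50.1% in the others. The summed TPM of the 6 myosin heavy chains was between 1325 and 2902 in the 4 libraries and between 6166 and 18085 in the others, with no overlap. Calls of the 6 genes that these libraries change are therefore given with and without them, as are several changes of sign. In bulk tissue, fewer myofibers and less RNA per myofiber cannot be told apart.

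The first question was whether the fast fiber genes differ between the groups at each week. Myh1 levels in cachectic mice lay above the controls from 4 weeks on, in each mouse at 4 and 6 weeks and in 6 of 7 at 8 weeks, but in the fit of all 62 mice on TPM as deposited Myh1 did not pass the test across all genes. At 4 weeks, Myh1 had 6579, 10654, 7001, 8345 and 6336 TPM in the 5 cachectic mice. The 5 control mice had 4675, 5563, 5227, 3608 and 4399 TPM, and the non-cachectic mice had 4515, 4572, 4463, 5479 and 3782 TPM. Each cachectic mouse was above each control and each non-cachectic mouse, and the mean was 1.66 times that of controls and 1.71 times that of non-cachectic mice. Of all genes tested, 0.0221% and 0.0295% were called by limma in these contrasts at 4 weeks. The share of all genes whose groups separated in this way was not computed, at this week or at 6 and 8 weeks.

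At 6 weeks, Myh1 had 11887, 9068, 6012, 10627 and 6484 TPM in cachectic mice. It had 5037, 5934, 4703, 2385 and 5113 TPM in control mice and 5108, 4742, 5058, 3978 and 6046 TPM in non-cachectic mice. Each of the 5 cachectic mice was again above each control, and 4 of the 5 were above each non-cachectic mouse. The mean was 1.90 times that of controls and 1.77 times that of non-cachectic mice.

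At 8 weeks, Myh1 ranged from 560 to 13376 TPM in the 7 cachectic mice, with a median of 7840.4 TPM. It had 3757, 5252, 4064, 5203 and 5740.2 TPM in control mice and between 3240.4 and 7035 TPM in non-cachectic mice. The lowest cachectic value came from replicate 3, a library with few genes, and the other 6 cachectic mice were above each of the 5 controls. Without that library, the mean of the cachectic mice was 1.97 times that of controls.

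**Figure D1:**
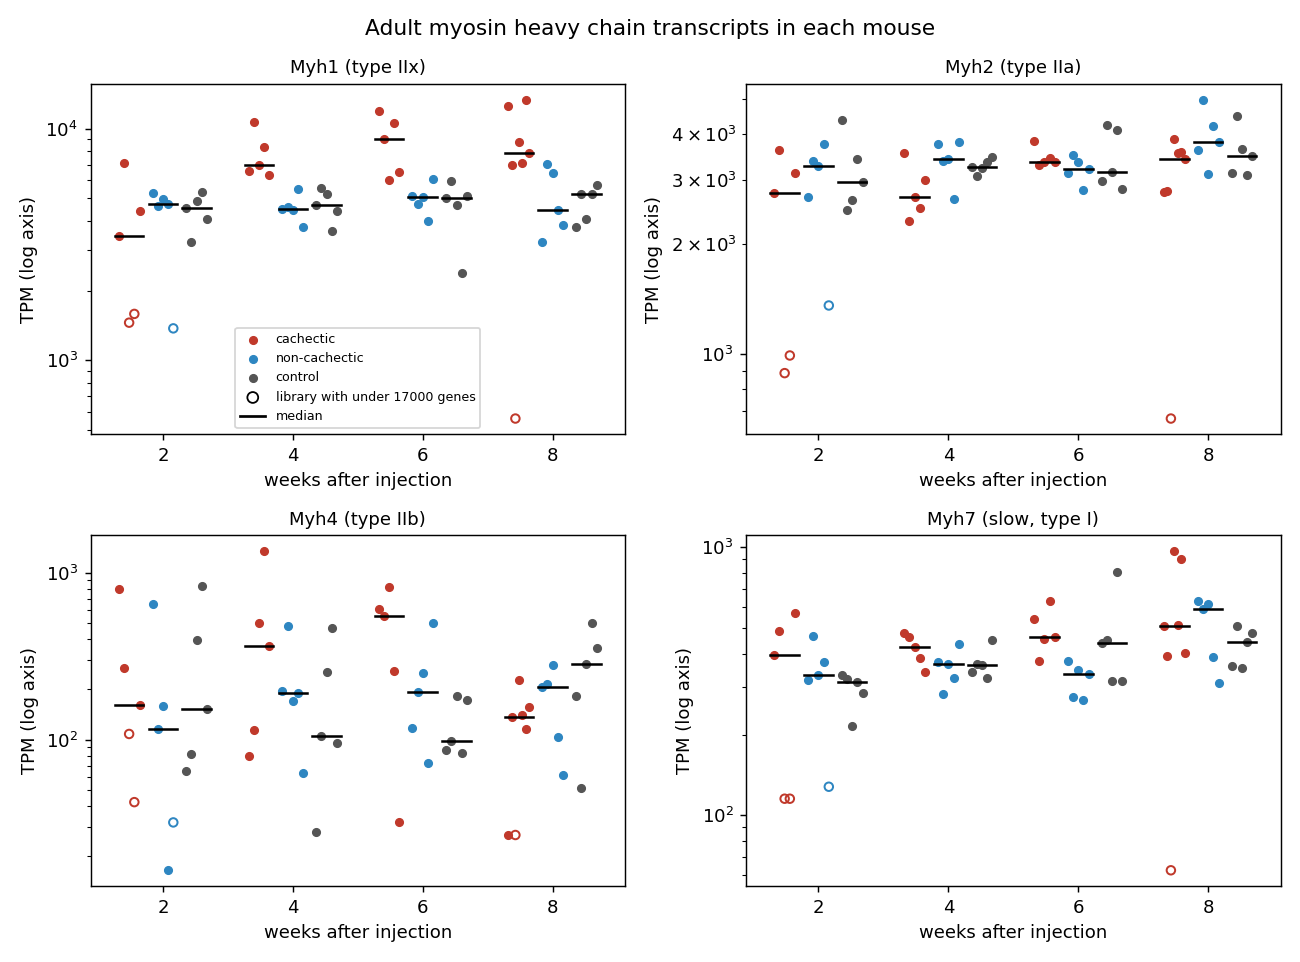
TPM of Myh1, Myh2, Myh4 and Myh7 (log axes) in each mouse at 2, 4, 6 and 8 weeks after injection, colored by group, with a line at the median of each group and open circles for the 4 libraries with under 17000 genes above 0. Myh1 had medians of 7001, 9068 and 7840.4 TPM in cachectic mice at 4, 6 and 8 weeks, and the open circles are the lowest points of Myh1, Myh2 and Myh7.

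None of the 6 genes passed the test in these contrasts when all 62 mice were fitted together with limma on log2(TPM + 1), a scale that understates the change of genes with low levels. Across the 72 pairs of a gene and a contrast of 2 groups within a week, 0 had an adjusted p under 0.05, and 4 had an unadjusted p under 0.05. Dunn's test on ranks, adjusted here over all genes tested, also called 0 of the 72, with 7 at an unadjusted p under 0.05. The study used this test with cutoffs on p and fold change and names no such adjustment. With the adjustment, the test called 0 of all genes in each contrast at 2, 4 and 6 weeks, so nothing about the 6 genes follows from it there. At 8 weeks it called 1121 genes between cachectic and control mice, 607 between cachectic and non-cachectic mice and 0 between non-cachectic and control mice. The limma background over all 13578 genes was 29.3% called between cachectic and control mice at 2 weeks, 0.0221% at 4 weeks, 6.79% at 6 weeks and 14.8% at 8 weeks. Between cachectic and non-cachectic mice it was 0%, 0.0295%, 5.85% and 12.9% at the same weeks, and between non-cachectic and control mice it was 4.43% at 2 weeks and 0% at 4, 6 and 8 weeks. With the 4 libraries with few genes left out, 0 genes were called between cachectic and control mice at 2 weeks. Between non-cachectic and control mice, 679 genes were then called at that week.

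The log2 fold change of Myh1 between cachectic and control mice was 0.72 ± 0.44 (SE) at 4 weeks, 0.94 ± 0.44 at 6 weeks and 0.37 ± 0.41 at 8 weeks. The adjusted p at 6 weeks was 0.210 (limma). limma shares 1 estimate of the spread among the 12 conditions, so the 4 libraries with few genes widened the error of each of them. Without these 4 libraries, the fold change was 0.72 ± 0.22 at 4 weeks (limma, adjusted p = 0.0663), 0.94 ± 0.22 at 6 weeks (adjusted p = 0.00102) and 0.94 ± 0.21 at 8 weeks (adjusted p = 0.000338). Against non-cachectic mice it was 0.75 ± 0.22 at 4 weeks (limma, adjusted p = 0.0486), 0.78 ± 0.22 at 6 weeks (adjusted p = 0.00564) and 0.93 ± 0.21 at 8 weeks (adjusted p = 0.000440).

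Without these 4 libraries, 6 of the 72 pairs were called, 5 of them Myh1 and 1 Myh7. With all mice kept, weighting the libraries by their quality called Myh1 in all 6 contrasts of cachectic mice at 4, 6 and 8 weeks, and fits of only the 2 groups called it against both other groups at 6 weeks (adjusted p = 0.0209 and 0.0130, limma). The background of the fit without the 4 libraries rose to 1.85% of genes at 4 weeks, 31.2% at 6 weeks and 34.6% at 8 weeks between cachectic and control mice. It was 2.23%, 27.2% and 33.3% between cachectic and non-cachectic mice. The calls of Myh1 and Myh7 at 6 and 8 weeks without the 4 libraries are to be read against these shares. The share of all genes called in the weighted fit and in fits of only the 2 groups is not given here, so those calls have no background beside them.

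**Figure D2:**
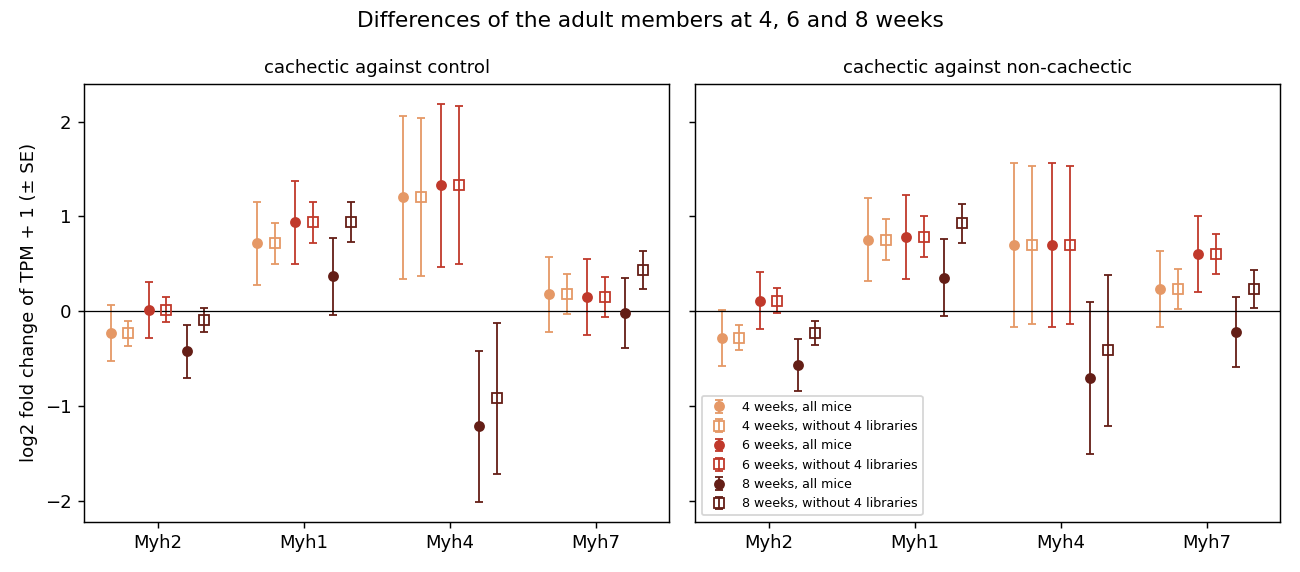
Log2 fold changes of TPM + 1 with their standard errors for Myh2, Myh1, Myh4 and Myh7 at 4, 6 and 8 weeks, cachectic against control (left) and against non-cachectic mice (right), in all mice (filled circles) and without the 4 libraries with the fewest genes (open squares). Myh1 was at 0.94 ± 0.44 against controls at 6 weeks in all mice and at 0.94 ± 0.22 without the 4 libraries.

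The share of transcripts from mitochondrially encoded genes was lower in cachectic mice than in controls at 6 weeks, whereas Myh1 was higher. It was between 34.3% and 44.9% in cachectic mice at 6 weeks and between 44.9% and 47.9% in controls, and a change in these genes alters the TPM of all others. After TPM was rescaled without the mitochondrial genes, the log2 fold change of Myh1 against controls was 0.63 at 4 weeks, 0.77 at 6 weeks and 0.27 at 8 weeks. The same rescaling called 1 of the 72 pairs, Myh2 between cachectic and non-cachectic mice at 8 weeks.

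Myh2, the type IIa gene, did not follow Myh1. At 4 weeks, it had 3549, 2318, 2701, 2506 and 2999 TPM in cachectic mice and 3262, 3076, 3226, 3357 and 3458 TPM in controls. Of the 5 cachectic mice, 4 were below each control and 1 was above each of them. At 6 weeks, it had between 3285 and 3844 TPM in cachectic mice and between 2831 and 4253 TPM in controls, so that the cachectic range lay within that of the controls. At 8 weeks, the 7 cachectic mice ranged from 666 to 3883 TPM with a median of 3429, and the controls from 3103 to 4491.

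The log2 fold change of Myh2 against controls was -0.23 ± 0.30 (SE) at 4 weeks, 0.014 ± 0.30 at 6 weeks and -0.43 ± 0.27 at 8 weeks. Against non-cachectic mice it was -0.28 ± 0.30, 0.11 ± 0.30 and -0.57 ± 0.27 at these weeks. The last had an adjusted p of 0.184 and was -0.24 ± 0.13 (limma, adjusted p = 0.150) without the 4 libraries with few genes. On TPM as deposited, Myh2 passed the test in no contrast in all mice or without these libraries. With all mice and other scalings, it was lower than in non-cachectic mice at 8 weeks, with a log2 fold change of -0.48 with median ratios (limma, adjusted p = 0.0254) and of -0.67 after rescaling without mitochondrial genes (adjusted p = 0.0269). Scaled to the sum of the 6 genes, it was lower at 8 weeks against both other groups (adjusted p = 0.0316 against controls and 0.0194 against non-cachectic mice, limma). The share of all genes called under these scalings is not given here, so these calls have no background beside them.

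The second question was how the myosin heavy chains divide their sum, a share that does not depend on the scaling between libraries. Myh1 held a median of 56.2% of the summed TPM over the 62 mice and Myh2 35.8%, and the other 4 genes shared the rest. Across mice, the shares of Myh1 and Myh2 were close to mirror images (Pearson r = -0.95 over 62 mice, as a description), since together they made up most of the sum.

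Myh2 held a smaller share in cachectic mice at 4 and 6 weeks. At 4 weeks, the share was 33.1%, 17.1%, 25.3%, 19.9% and 29.8% in cachectic mice and 39.2%, 33.7%, 35.5%, 43.0% and 40.8% in controls. The 2 groups did not overlap, and the means were 25.0% ± 6.66 (SD, n = 5) and 38.4% ± 3.84 (SD, n = 5). The difference was -13.4 percentage points (two-sided exact permutation test, p = 0.00794, the smallest that 5 against 5 mice allow, adjusted p = 0.0476 over the 12 contrasts of Myh2).

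Against the non-cachectic mice at 4 weeks, with Myh2 shares between 30.65% and 46.8%, the difference was -14.8 points (exact permutation test, p = 0.0159, adjusted p = 0.0476), and 4 of 5 cachectic mice were below each of them. At 6 weeks, the share of Myh2 was 22.7%, 24.7%, 31.4%, 23.0% and 32.4% in cachectic mice. It was between 33.4% and 55.3% in controls, a difference of -13.3 points with no overlap (exact permutation test, p = 0.00794, adjusted p = 0.0476). It was between 31.7% and 40.3% in non-cachectic mice, a difference of -9.98 points (exact permutation test, p = 0.0159, adjusted p = 0.0476).

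At 8 weeks, the share of Myh2 in cachectic mice was 28.9% ± 10.6 (SD, n = 7), against 39.4% ± 5.02 (SD, n = 5) in controls. The difference of -10.4 points did not pass (exact permutation test, p = 0.0859, adjusted p = 0.172). Replicate 3, the library with few genes, held 50.3%, and the other 6 cachectic mice were between 17.5% and 31.2%, below each of the 5 controls, which began at 33.3%. Without it, the difference was -14.0 points (exact permutation test, p = 0.00433, adjusted p = 0.0260).

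The share of Myh1 was higher in cachectic mice by 12.4 points at 4 weeks, 13.1 points at 6 weeks and 12.4 points at 8 weeks than in controls. Its exact permutation p was 0.00794, 0.0317 and 0.0505, and the adjusted p over the 12 contrasts of Myh1 was 0.0952, 0.0952 and 0.101. All 5 cachectic mice were above each control at 4 weeks and 4 of 5 at 6 weeks. At 8 weeks 6 of 7 were above each control, and without replicate 3 the difference was 16.2 points (exact permutation test, p = 0.00433, adjusted p = 0.0260). Of the 72 pairs of a gene and a contrast, 4 passed the adjusted threshold for the share, all of them Myh2. Without the 4 libraries with few genes 9 passed, 6 of them Myh2 and 3 Myh1. Here p was adjusted over the 12 contrasts of each gene and not over the 72 pairs, so these counts carry no adjustment across genes. As the shares of Myh1 and Myh2 mirror each other, their passes are not separate results.

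These calls rest on a difference of shares in which the sum is the whole. When each gene was instead divided by the geometric mean of the 4 adult genes on the log2 scale, which gives the variable Myh4 equal weight, 0 of the 72 pairs passed. The difference for Myh2 on that scale was -0.70 at 4 weeks and -0.59 at 6 weeks against controls (exact permutation test, adjusted p = 0.222 for both).

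**Figure D3:**
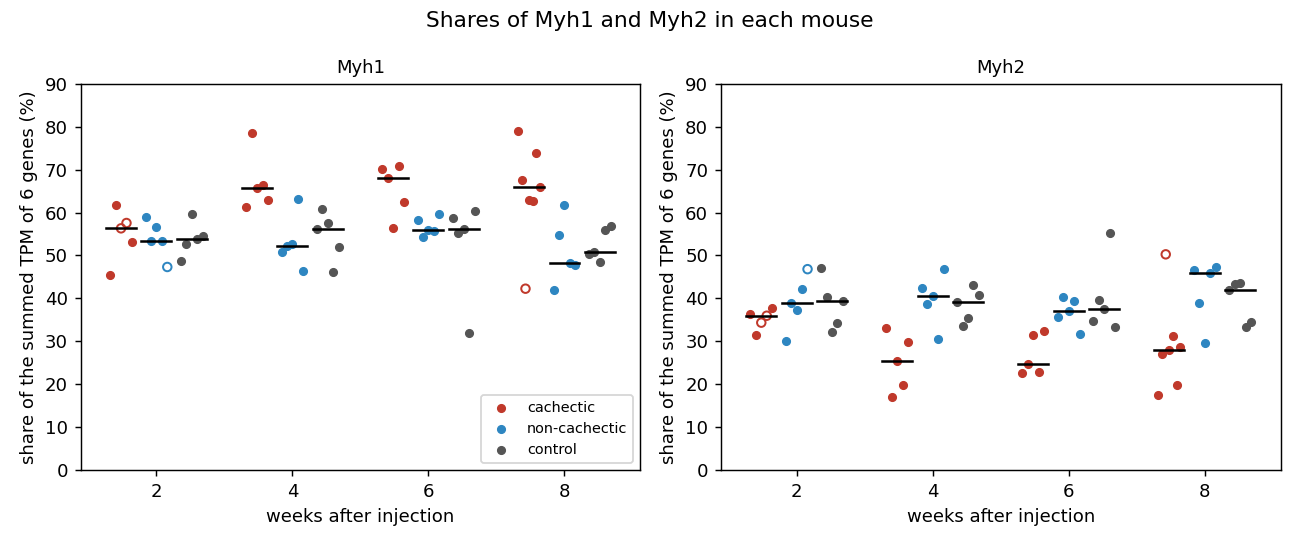
Share of Myh1 (left) and Myh2 (right) in the summed TPM of the 6 myosin heavy chain genes, in percent, in each mouse by week and group, with a line at the median and open circles for the 4 libraries with the fewest genes. At 4 weeks the cachectic mice held between 17.1% and 33.1% Myh2 and the controls between 33.7% and 43.0%.

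At 2 weeks, the shares did not separate the groups. The share of Myh1 was 54.9% ± 6.05 in cachectic mice, 54.0% ± 4.41 in non-cachectic mice and 53.9% ± 3.91 in controls (SD, 5 mice each). 0 of the 18 comparisons of shares at 2 weeks had an exact permutation p under 0.05. Between non-cachectic and control mice, 0 of the 24 comparisons over the 4 weeks did. A p above the threshold does not show that the groups were alike, and the differences of Myh1 between non-cachectic and control mice ranged from -1.57 to 4.33 points. In TPM, signs at 2 weeks between cachectic and control mice turned when the 4 libraries with few genes were left out. The log2 fold change went from -0.68 ± 0.30 (limma, adjusted p = 0.0671) to 0.021 ± 0.15 for Myh2 and from -0.53 ± 0.44 to 0.13 ± 0.25 for Myh1. It went from -0.15 ± 0.86 to 0.75 ± 0.96 for Myh4 and from -0.10 ± 0.40 to 0.72 ± 0.24 (limma, adjusted p = 0.182) for Myh7.

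In order of the mean TPM of Myh1, the 3 highest of the 12 conditions were cachectic mice at 6 weeks (8816 ± 2553, SD, n = 5), at 8 weeks (8170.3 ± 4227, SD, n = 7) and at 4 weeks (7783 ± 1783, SD, n = 5). The step to the fourth, non-cachectic mice at 8 weeks (5008 ± 1660.1, SD, n = 5), was the only one of the 11 steps between neighbors that exceeded the larger SD of the pair. For TPM of the other 5 genes, 0 of the 11 steps did. Without replicate 3, the mean of the cachectic mice at 8 weeks was 9439 TPM, above that at 6 weeks, so the order of these weeks rested on that library.

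Myh4, the type IIb gene, varied most among the adult genes. It ranged from 16.5 to 1343 TPM, an 81.3-fold range, whereas the range was 2.15-fold for Myh2, 5.61-fold for Myh1 and 4.47-fold for Myh7 in the 58 libraries other than those with few genes. At 4 weeks it had 79.6, 114, 503, 1343 and 363 TPM in cachectic mice and 28.0, 105, 253, 465 and 95.8 TPM in controls. The groups overlapped widely, with 2 of 5 cachectic mice above each control.

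At 6 weeks, Myh4 had 608, 551, 825, 258 and 32.0 TPM in cachectic mice and 86.3, 98.5, 183, 83.5 and 174 TPM in controls. Of the 5 cachectic mice, 4 were above each control and 1 was below each of them, and the log2 fold change was 1.33 ± 0.86 (limma, adjusted p = 0.408), and 1.80 ± 0.70 with libraries weighted by quality (adjusted p = 0.0300). At 8 weeks, it ranged from 26.9 to 228 TPM in cachectic mice and from 51.5 to 499 TPM in controls (log2 fold change -1.21 ± 0.80, and -0.92 ± 0.80 without the library with few genes). Its share was 1.19% ± 0.617 (SD, n = 7) against 3.04% ± 1.77 (SD, n = 5) in controls, which had p = 0.0303 in the exact permutation test (adjusted p = 0.364), and without that library it was 1.05% with the same p. The change of the difference between cachectic and control mice from 6 to 8 weeks was -2.54 ± 1.18 on the log2 scale (limma, adjusted p = 0.623).

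Myh7, the slow gene, had 538, 376, 455, 630.2 and 464 TPM in cachectic mice at 6 weeks and 376, 276, 349, 270.2 and 336 TPM in non-cachectic mice. Of the 5 cachectic mice, 4 were above each non-cachectic mouse, and the log2 fold change was 0.60 ± 0.40 in all mice (limma, adjusted p = 0.469). Without the 4 libraries with few genes it was 0.60 ± 0.21 (limma, adjusted p = 0.0283). Controls at that week ranged from 317 to 807 TPM and overlapped with both groups. The share of Myh7 was between 2.64% and 10.8% over the 62 mice, and 0 of its 12 contrasts of shares had an exact permutation p under 0.05.

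Against controls, the log2 fold change of Myh7 was 0.18 ± 0.40 at 4 weeks, 0.15 ± 0.40 at 6 weeks and -0.020 ± 0.37 at 8 weeks. Its sign at 8 weeks turned with a single library, and without cachectic replicate 3 it was 0.43. Against non-cachectic mice it was 0.23 ± 0.40 at 4 weeks and -0.22 ± 0.37 at 8 weeks, and the latter turned to 0.23 ± 0.20 without that library. The cardiac gene Myh6, which shares words of its transcript with Myh7, had between 0.157 and 0.267 times the TPM of Myh7 in each of the 62 libraries.

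Myh8 and Myh3, the developmental genes, were split among mice, and whether the split was tied to the groups was not tested. In 8 mice, Myh8 was between 0.366 and 1.03 TPM, and in the other 54 it was between 8.48 and 168 TPM, with no mouse in between. The 8 mice were cachectic replicate 4 at 4 weeks and replicate 1 at 8 weeks, control replicate 1 at 2 weeks, non-cachectic replicates 1 and 4 at 2 weeks, replicate 2 at 6 weeks, and replicates 2 and 3 at 8 weeks. They came from each of the 3 groups, most of them from the non-cachectic mice. They listed between 17982 and 18773 genes, and none is a library with few genes.

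Myh3 was also low in these 8 mice, between 0.108 and 0.629 TPM. Its level was below 1 TPM in 2 further mice, control replicate 2 at 6 weeks with 0.0908 TPM and non-cachectic replicate 4 at 8 weeks with 0.505 TPM, in which Myh8 was at 15.0 and 26.8 TPM. In the other 52 mice, Myh3 was between 1.19 and 10.4 TPM. The adult genes were not low in the 8 mice, in which Myh1 ranged from 4544 to 12563 TPM and Myh2 from 2506 to 4978 TPM.

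As a share of the sum, Myh8 fell into separate ranges. It held between 0.00231% and 0.0100% in the 8 mice, 0.139% in 1 mouse, between 0.221% and 0.332% in 37 mice, between 0.544% and 0.740% in 15 mice and 2.22% in 1 mouse, with no mouse between 0.4% and 0.5%. The 37 mice included members of each of the 12 conditions. The range from 0.544% to 0.740% held 6 cachectic, 3 non-cachectic and 6 control mice. These cachectic mice included libraries with few genes, namely replicates 3 and 4 at 2 weeks and replicate 3 at 8 weeks. Their Myh8 was at 15.6, 18.6 and 8.48 TPM, and their summed TPM of the 6 genes was low, at 2581, 2755 and 1325. These ranges were read from the sorted values and are a description.

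**Figure D4:**
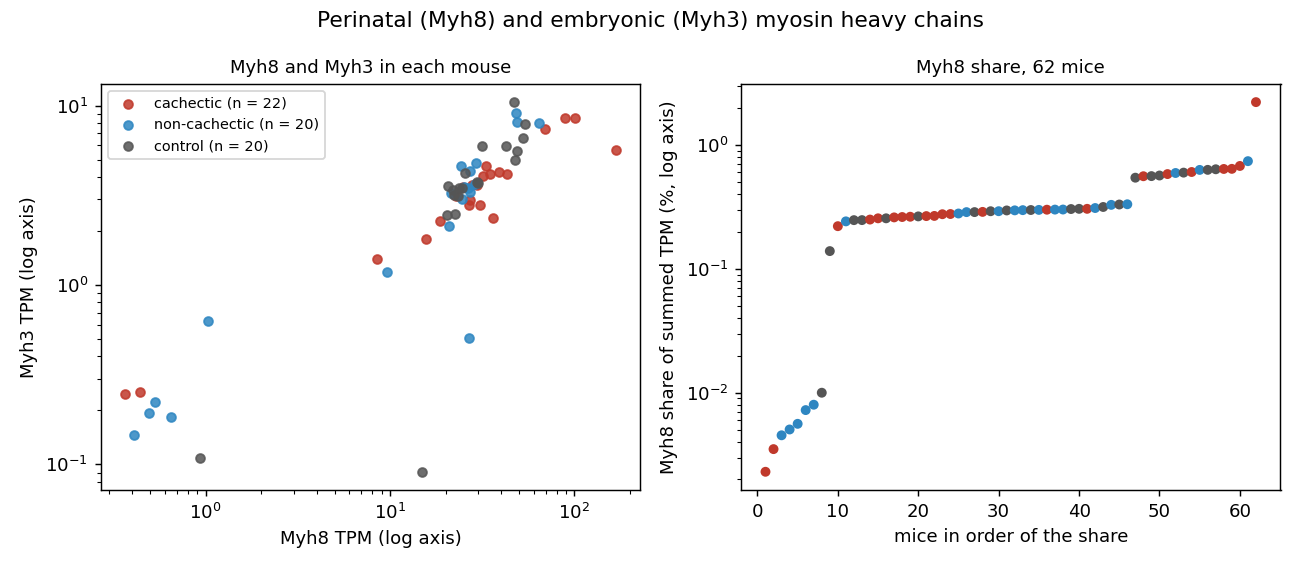
TPM of Myh8 against TPM of Myh3 in each of the 62 mice (left, both axes log), and the share of Myh8 in the summed TPM of the 6 genes, in percent on a log axis, with the mice sorted by that share (right), colored by group. In 8 mice from all 3 groups, Myh8 was at or under 1.03 TPM, and the other 54 began at 8.48 TPM.

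Across the 62 mice, Myh8 and Myh3 varied together with a Pearson r of 0.88 on the log2(TPM + 1) scale. The gene next most like Myh8 was Tmem9b with an r of 0.46, followed by A430005L14Rik with 0.44. For Myh3, the next were Cstf3 and Gmppb, both with an r of 0.44. Myh2, Myh1 and Myh4 lie between Myh3 and Myh8 on chromosome 11, and they did not share the split: the r with Myh8 was 0.099 for Myh2, 0.028 for Myh1 and 0.16 for Myh4. 2 noncoding RNAs of the cluster on the opposite strand, 2310065F04Rik and 9430073C21Rik, had an r of -0.37 and 0.33 with Myh8. Myh13, the next gene after Myh8, was at or below 1.81 TPM in each mouse and was not tested.

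The groups overlapped in Myh8 and Myh3. The largest difference in the share of Myh3 was at 4 weeks, when cachectic mice held 0.0215% ± 0.0123 against 0.0549% ± 0.0286 in controls (SD, 5 mice each), with 3 of 5 below each control (exact permutation test, p = 0.0238, adjusted p = 0.190). Against non-cachectic mice, with 0.0541%, p was 0.0317 (exact permutation test, adjusted p = 0.190). At 8 weeks, Myh8 ranged from 0.366 to 101 TPM in cachectic mice, from 23.6 to 52.7 TPM in controls and from 0.530 to 48.7 TPM in non-cachectic mice. Myh3 ranged from 0.246 to 8.565 TPM in cachectic mice, from 3.48 to 6.63 TPM in controls and from 0.221 to 8.10 TPM in non-cachectic mice. The 3 groups overlapped for both genes, and the standard error of their log2 fold changes between cachectic and control mice was 0.92 for Myh8 and 0.51 for Myh3 at that week.

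The course over weeks was compared within each group, where time since injection and age cannot be told apart. Of the 36 pairs of a gene and a contrast, 0 passed (limma, 2 with an unadjusted p under 0.05). Myh1 was closest in cachectic mice, with a log2 fold change of 1.02 ± 0.41 from 2 to 8 weeks (limma, adjusted p = 0.0508), and 0.94 ± 0.24 without the 4 libraries with few genes (adjusted p = 0.00245). Without these libraries, the background was 34.8% of genes from 2 to 8 weeks and 12.3% from 4 to 8 weeks in cachectic mice. In all mice it was 29.7% of genes called from 2 to 8 weeks and 2.07% from 4 to 8 weeks in cachectic mice. It was 3.28% and 0% in controls and 0% for both in non-cachectic mice. The difference between cachectic and control mice changed between weeks in 0 of 24 pairs (limma, 2 with an unadjusted p under 0.05), against a background of 5.27% of genes from 2 to 8 weeks and 0% from 4 to 6, 4 to 8 and 6 to 8 weeks. With the 4 libraries left out, 0 of the 24 pairs passed. The background was then 2583 of the 13578 genes from 2 to 8 weeks, 187 from 4 to 8 weeks and 0 from 4 to 6 and 6 to 8 weeks.

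The genes with the most similar course to each adult member over the 62 mice were named by Pearson r of log2(TPM + 1), as a description of mice that each give 1 library for all genes. They were Myom3, Cand2 and Actn2 for Myh2 (r of 0.96, 0.94 and 0.94), of which Myom3 encodes an M-band protein and Actn2 a Z-disc protein. They were Ccpg1, Gnl2 and Las1l for Myh1 (0.95, 0.94 and 0.94), of which Gnl2 and Las1l act in ribosome assembly. For Myh4 they were Actn3, the fast fiber alpha-actinin, Slc16a3, a lactate transporter, and Mybph (0.83, 0.72 and 0.69). For Myh7 they were Myh6, Nrap and Myh7b (0.98, 0.92 and 0.91), and Myh7b is a further slow myosin heavy chain gene. All these r include the 4 libraries with few genes, which held the lowest levels of Myh1, Myh2 and Myh7. No r was computed without them, so how far these libraries set the r was not tested.

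The partners of the myosin heavy chains were described from lists. The 15 genes named at 8 weeks kept their direction and stayed called without the 4 libraries with few genes, whereas the counts of some lists changed. The counts against controls are to be read beside the share of all genes called in either direction, which in all mice was 6.79% at 6 weeks and 14.8% at 8 weeks, and without the 4 libraries 31.2% and 34.6%. Of the 13 fast fiber partners, 5 were higher and 0 lower in cachectic than in control mice at 6 weeks, with a median log2 fold change of 0.37, where all genes tested had a median of 0.17. At 8 weeks, 2 were higher and 3 lower, and the median was 0.078, where all genes tested had -0.094. Without the 4 libraries, 8 were higher and 0 lower at 6 weeks, and 7 higher and 3 lower at 8 weeks with a median of 0.27. The troponin subunit Tnni2 rose from a mean of 4665 TPM to 6728 (log2 fold change 0.52 ± 0.09, limma, adjusted p = 6.3e-05), and the fast regulatory light chain Mylpf rose from 5464 to 7629 TPM (0.47 ± 0.12, adjusted p = 0.00515). The calcium-buffering protein parvalbumin (Pvalb) fell from 845 to 303 TPM (-1.58 ± 0.30, limma, adjusted p = 1.3e-04), and calsequestrin 1 (Casq1), a calcium-binding protein of the sarcoplasmic reticulum, fell from 774 to 334 TPM (-1.32 ± 0.23, adjusted p = 3.3e-05).

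Of the 10 slow fiber partners, 3 were higher and 1 lower against controls at 8 weeks (median log2 fold change 0.15), and without the 4 libraries 4 were higher and 1 lower (median 0.29). Myoz2, a Z-disc protein of slow fibers, rose from 268 to 542 TPM (log2 fold change 0.95 ± 0.17, limma, adjusted p = 6.9e-05). The slow and cardiac troponin C (Tnnc1) rose from 476 to 711 TPM, and the slow tropomyosin Tpm3 rose from 223 to 316 TPM. Calsequestrin 2 (Casq2) fell from 297 to 207 TPM. Against non-cachectic mice, Myoz2 was again higher (0.76 ± 0.17, limma, adjusted p = 0.00141) and Casq2 lower (-0.59 ± 0.16, adjusted p = 0.00694), and Tnnc1 and Tpm3 were not called.

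Among 7 genes of myosin assembly and turnover, 0 were higher and 2 lower against controls at 8 weeks (median 0.013), and 2 were higher and 2 lower without the 4 libraries (median 0.10). Smyd1, a methyltransferase needed for thick filament assembly, had a log2 fold change of -0.63 ± 0.22 (limma, adjusted p = 0.0438), and Trim55, a titin-associated ubiquitin ligase, of -1.03 ± 0.30 (adjusted p = 0.0116). Among 26 regulators of myosin heavy chain genes, 0 were higher and 2 lower (median -0.33), and 2 were higher and 3 lower without the 4 libraries, with a median of 0.034, so that the sign of the median turned. The 2 in all mice were Ppargc1b, a coactivator of mitochondrial genes (-1.21 ± 0.36, limma, adjusted p = 0.0157), and the muscle transcription factor Mef2c (-0.61 ± 0.20, adjusted p = 0.0349). Against non-cachectic mice, Trim55 and Ppargc1b were again lower, and Smyd1 and Mef2c were not called.

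Of the 12 genes of immature or denervated fibers, 9 were tested, and 2 were higher and 1 lower against controls at 8 weeks, with the same counts without the 4 libraries. Their median was 0.0053 in all mice and 0.26 without the 4 libraries. Runx1, a transcription factor induced by denervation, rose from 1.15 to 2.11 TPM, and the acetylcholine receptor subunit Chrna1 rose from 7.38 to 10.97 TPM. The cardiac alpha-actin Actc1, which skeletal muscle makes before birth, fell from 8.23 to 1.04 TPM (log2 fold change -2.20 ± 0.45, limma, adjusted p = 3.1e-04). Of the other sarcomeric myosin heavy chains, only Myh6 and Myh7b passed the filter, and of these 2 and the 4 non-muscle and smooth muscle myosin heavy chains (Myh9, Myh10, Myh11 and Myh14), 0 were called by limma at 4, 6 or 8 weeks between cachectic mice and either other group. Without the 4 libraries, 1 of the 4 non-muscle and smooth muscle genes was higher against controls at 6 and at 8 weeks, and 0 of the other 2 sarcomeric genes were called.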

How the data were processed

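The authors extracted RNA with Trizol, prepared TruSeq libraries and trimmed the reads. CLC Genomics Workbench aligned these to the mm10 build (GRCm38), and the authors deposited its TPM values for 47643 genes in 62 mice. Each library summed to 1000000 TPM. Reads per library, the annotation release and the treatment of reads matching several genes are not given in the sources used here, so depth is unknown and no counting error is given. Nothing states whether replicates share a cage or litter.

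Groups came from the labels. log2(TPM + 1) was computed for 13578 genes that reached 1 TPM in 5 mice or more. limma 3.58.1 (R 4.3.3) modelled all 12 conditions together, with a prior on the variance that followed the mean level. Genes were called at a Benjamini-Hochberg adjusted p under 0.05 over all genes tested, with no minimum fold. Shares of the summed TPM of the 6 genes were compared with two-sided exact permutation tests of the difference in means, adjusted over the 12 contrasts of a gene. limma was tested on simulated data. Positions and transcripts come from GENCODE for GRCm38 and promoters from RefSeq. Plots used Python 3.11.15 and matplotlib 3.10.9.

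The members, the lists and the tests were chosen with earlier results of these data known. The genes named are the 6 members; of each list, the counts called and at most 4 called genes with the largest absolute log2 fold change between cachectic mice and either other group at 8 weeks; and for each member the 3 genes with the highest Pearson r over the 62 mice. The shared promoter run was chosen after the sequences were seen. The alternatives tried were another pseudocount (0.1), no filter, median-ratio and quantile scaling, rescaling without mitochondrial genes or to the sum of the 6 genes, array weights, the replicate block, fits of only the 2 groups, Dunn's test, other wholes for the shares, and leaving out libraries. Leaving out the 4 libraries with few genes was applied to the lists after seeing the data.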

Additional observations from a re-analysis of the deposited data

Results flagged for a closer look

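A mouse was set apart where its gap to the nearest of its group exceeded Dixon's limit for the range, which chance does in about 1 in 20 groups, and 23 of 144 groups held such a mouse. Control replicate 4 at 6 weeks held the highest Myh2 share of its group, 55.3%, with 32.0% Myh1 and 10.8% Myh7, and it had 807 TPM of Myh7. Its mean log2(TPM + 1) over the 7 heart genes was 1.78, the highest of the 62 mice, with 151 TPM of Myh6, 3.37 of Nppa (also the highest), 3.10 of Myl4, 0.414 of Tnni3, 0.341 of Myl7, 0.045 of Ryr2 and 0.036 of Mybpc3. Cachectic replicate 3 at 8 weeks, a library with few genes, had 666 TPM of Myh2 and a Myh2 share of 50.3%. Non-cachectic replicate 5 at 2 weeks, another such library, had 1373 TPM of Myh1.

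For Myh8, cachectic replicate 1 at 2 weeks stood above its group with 168 TPM and a share of 2.22%, and control replicate 4 at 8 weeks with 52.7 TPM and 0.567%. Non-cachectic replicate 5 at 4 weeks stood above its group with a share of 0.594%. Cachectic replicate 4 at 4 weeks stood below its group with 0.442 TPM and 0.00351%. Non-cachectic replicate 2 at 6 weeks stood below its group with 0.491 TPM and 0.00562% for Myh8, and 0.194 TPM and 0.00222% for Myh3.

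Non-cachectic replicate 1 at 2 weeks had 649 TPM of Myh4 and a share of 7.25%, above its group. Cachectic replicate 1 at 6 weeks was the highest of its group in Myh2 with 3844 TPM. The Myh7 share stood above the group in control replicate 5 at 4 weeks with 5.33% and below it in control replicate 3 at 8 weeks with 4.22%.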

How the results depend on the processing

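The share of all genes called is not given here for the scalings, the array weights or the fits of only the 2 groups, so their counts have no background beside them. Of the 72 pairs of a gene and a contrast within a week, 0 were called in all mice, 1 after median-ratio scaling, 1 after rescaling without mitochondrial genes, 3 after scaling to the sum of the 6 genes, 8 with array weights, 3 in fits of only the 2 groups and 6 without the 4 libraries with the fewest genes. Leaving out single mice gave 0 to 2 (1 without cachectic replicate 1, 2 or 5 at 2 weeks), for changes of the difference between weeks 0 to 1 of 24 and for weeks within a group 0 to 3 of 36, the highest in each without cachectic replicate 3 at 8 weeks; without the 4 libraries the last count was 1. The count was 0 with the replicate block, in which Myh1 against controls at 8 weeks was 0.071. In 0 of 12 pairs of groups were all correlations between mice with the same replicate number over 0.1. That strict rule cannot show whether such mice deviated together to a lesser degree. Their mean correlation was above that of mice with other numbers in some pairs and below it in others. Shares were adjusted over the 12 contrasts of each gene and not over all 72. Of the 72 shares, 4 passed in all mice, 0 as log2 ratios, 9 without the 4 libraries, and 2 to 8 without single mice, the fewest without cachectic replicate 2, 3, 4 or 5 at 4 weeks or 1, 2, 3 or 4 at 6 weeks, and the most without cachectic replicate 3 at 8 weeks.

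Values whose sign turned had passed no test in all mice. Myh2 at 6 weeks against controls was -0.17 with median ratios, -0.15 without mitochondrial genes, -0.57 with the sum of the 6 genes (adjusted p = 0.0373, limma), -0.032 with array weights and -0.054 to 0.093 without single mice. Against non-cachectic mice it was -0.039, -0.046 and -0.47 in the first 3 of these. Myh4 at 8 weeks against non-cachectic mice was 0.12 with array weights. Myh7 against controls was -0.24 at 4 weeks with the sum of the 6 genes, and at 6 weeks -0.038 with median ratios, -0.044 with quantiles, -0.021 without mitochondrial genes and -0.44 with the sum. At 8 weeks it was 0.088 with median ratios, 0.41 with array weights, 0.43 without the 4 libraries and -0.22 to 0.43 without single mice. Against non-cachectic mice it was -0.18 at 4 weeks with the sum of the 6 genes, and at 8 weeks 0.25 with array weights, 0.23 without the 4 libraries and -0.42 to 0.23 without single mice. The cause of these turns was not tested.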
